A study of Mus musculus with 6 samples.

Results

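A group of 8 genes expressed in mouse fetal liver, Rpa1, Mad2l1, Rnf168, Wdr76, C330018D20Rik, Ankrd28, Mdc1 and Nol10, carried dense clusters of adenosine-to-inosine editing sites in their 3' untranslated regions (3' UTRs). They were taken by gene name from a table of editing sites, and 274 of its 6012 sites bear one of the 8 names. The 8 genes are among 37576 in the count table, and 7 of them were among the 8 gene names with the most listed sites. The genes were chosen by their number of listed sites and the levels of these, so site numbers, spacing and editing levels are given as a description without a test. The choice was not a strict ranking, because Nol10, with 15 sites, was taken and Jmjd4, with 23, was not. The comparison of the genotypes asks which of these sites lose editing without active ADAR1, and whether the level of the transcripts differs as well.

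RNA came from single-cell suspensions of whole livers of C57BL/6 embryos at embryonic day 12.5. There were 3 wild-type livers, numbered 2 (male), 15 and 17 (both female), and 3 livers homozygous for the E861A mutation of Adar1, numbered 6, 16 and 19 (all male), so sex was partly tied to genotype. The E861A change replaces a catalytic glutamate of ADAR1, and the labels describe these mice as deficient in ADAR1 editing. Each library is a mixture of all cells of the liver, and the labels name no litter. The count table held between 35280460 reads (E861A 16) and 43733715 reads (wild type 15) per library. Markers of erythroid cells and of hepatoblasts were present in all 6 libraries.

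ADAR enzymes bind double-stranded RNA and turn adenosine into inosine, which is read as G after sequencing. Long duplexes form where a transcript holds a repeat and an inverted copy of it, most often in 3' UTRs and introns, and many adenosines of such a duplex can then be edited. The enzymes favour adenosines preceded by U or A and rarely edit those preceded by G. Editing of such duplexes by ADAR1 is known for keeping a cell's own RNA from being sensed as foreign by MDA5.

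The proteins made from these genes have different tasks. Rpa1 encodes the large subunit of replication protein A, which coats single-stranded DNA. Rnf168 encodes a ubiquitin ligase that marks histone H2A beside DNA double-strand breaks, and Mdc1 a scaffold protein that gathers on the phosphorylated histone at such breaks. Mad2l1 encodes MAD2, an inhibitor of the anaphase-promoting complex in the spindle checkpoint. Wdr76 encodes a WD40 repeat protein that binds the CUL4-DDB1 ubiquitin ligase. Nol10 encodes a nucleolar protein of the small subunit processome, and Ankrd28 a regulatory subunit of protein phosphatase 6.

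Of the 274 sites, 272 were labelled as 3' UTR in the table, 14.99% of its 1815 sites of that label. By GENCODE M1 on NCBIM37, the build of the site positions, 271 of the 274 lay in the 3' UTR of the named gene and 2 in an intron, 1 each in Rpa1 and Rnf168. The remaining one, of Mad2l1 at chromosome 6 position 66491473, lay beyond the end of the gene model. None lay under another annotated gene. The 2 intronic sites had under 10 reads in a genotype, so levels below cover the 272 sites. Of these, 178 were listed from earlier site collections alone, 75 were both known and called in these libraries, and 19 were called in these libraries only.

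The sequences around the site with the highest wild-type level in Rpa1, Mad2l1, Rnf168, Ankrd28, Mdc1 and Nol10 show the duplex that a transcript can form with itself. Each is read 5' to 3' on the transcribed strand of NCBIM37, with 29 bases around the site as base 15. Capital letters mark all listed editing sites. The line after it gives the stretch of the same 3' UTR found opposite by alignment, with the base that faces the site in capitals. For Wdr76, the site with the most wild-type reads is shown, because the one with the highest level lay outside the repeat found.
Rpa1, chr11:75114503-75114531, minus strand: ttcAAAcAgAAAttAtgtcAcAAgtcatt
Rpa1, facing stretch, chr11:75114067-75114095: agttacttgagacaCaatccctgtttgaa
Mad2l1, chr6:66490061-66490089, plus strand: gataAAtgtgtgttAttgttccatttctt
Mad2l1, facing stretch, chr6:66490835-66490863: acgaaatgcagcagTaagacacatttctc
Rnf168, chr16:32300360-32300388, plus strand: tattagatctcattAcgagtggttgtgag
Rnf168, facing stretch, chr16:32299961-32299989: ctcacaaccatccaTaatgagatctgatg
Wdr76, chr2:121369480-121369508, plus strand: gacAgtttctgcaAAtgcgtgacatttgg
Wdr76, facing stretch, chr2:121370019-121370047: ccaaatgacatgcaAttgaagaaattatc
Ankrd28, chr14:32513835-32513863, minus strand: gatgttttctttAtAAAAatcaAcatcaa
Ankrd28, facing stretch, chr14:32514624-32514652: ttggtgttggttttTataagaaagcatct
Mdc1, chr17:35995551-35995579, plus strand: gAgctctgAtttcAAggccAgcctgggct
Mdc1, facing stretch, chr17:35995842-35995870: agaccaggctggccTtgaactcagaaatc
Nol10, chr12:17436393-17436421, plus strand: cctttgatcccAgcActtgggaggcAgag
Nol10, facing stretch, chr12:17436671-17436699: ctctgcctcctgagTgctgaagttaaagg

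The Rpa1 window alone held 11 listed sites in 29 bases, and the Ankrd28 window held 6. The Rnf168 window held 1. In 5 of these 7 pairs the named adenosine faced a U (T in the genome), in Rpa1 it faced a C and in Wdr76 an A. A facing base here comes from an alignment of genome sequence, and no folding of the RNA was measured.

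Each 3' UTR held at least 1 inverted repeat of 50 bases or more, and all 18 arms used here lay wholly in the GENCODE 3' UTR of their gene. The arms of Rnf168 were 132 bases each, 250 bases apart and 87.88% identical, with no gap in the alignment. Mad2l1 had the longest arms, 235 and 240 bases, 328 bases apart and 75.81% identical. Rpa1 had arms of 129 and 131 bases, 300 bases apart and 78.79% identical. In Wdr76 and C330018D20Rik the arms lay 444 and 447 bases apart and were 80% and 79.37% identical. Nol10 had the closest arms, 89 bases apart, with an identity of 75.97%, and Mdc1 had arms of 108 and 105 bases that were 155 bases apart and 87.04% identical. Ankrd28 held a pair of 77 and 76 bases separated by 759 bases and, between its arms, another of 80 and 84 bases separated by 362 bases. Among the 28 pairs of genes, the arms of 1 pair, Mdc1 and Nol10, matched each other, over 104 bases at 82.69% identity. No match of at least 50 bases was found between the arms of the other pairs.

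A total of 221 of the 272 sites (81.25%) lay inside an arm. All 29 sites of Ankrd28 and all 15 of Nol10 did, as did 49 of 50 in Rpa1, 49 of 50 in Mad2l1 and 30 of 33 in Rnf168. The shares were lower in C330018D20Rik (23 of 37), Mdc1 (14 of 29) and Wdr76 (12 of 29). The same search over the 3' UTR sites of 227 other genes with 2 or more such sites placed 758 of 1376 (55.1%) in an arm. In wild type the median level was 2.96% over the 221 sites inside the arms and 2.74% over the 51 outside. These medians mix genes of different levels. Within genes, the medians inside and outside were 12.35% and 2.53% in Wdr76, 1.51% and 0.136% in Mdc1, and 7.10% and 4.02% in Rnf168. C330018D20Rik had the opposite order, 6.25% and 11.5%. Rpa1 and Mad2l1 each had 1 site outside. The highest level of all, in C330018D20Rik, lay outside the arms found.

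The split of sites over the facing arms differed between genes. In Mad2l1, 34 sites lay in the upstream arm and 15 in the downstream one, and in Rnf168 the numbers were 23 and 7. Nol10 had the opposite order, 3 upstream and 12 downstream, while Rpa1 (22 and 27), C330018D20Rik (11 and 12) and Wdr76 (7 and 5) were near even. The 2 repeats of Ankrd28 had 6 and 10 and, in the inner one, 11 and 2. All 14 arm sites of Mdc1 lay in the upstream arm. Of the 658 adenosines inside the arms, 221 (33.59%) were listed as sites, with the highest share in Rpa1 (62.82% of 78) and the lowest in Wdr76 (16.9% of 71).

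**Figure D1:**
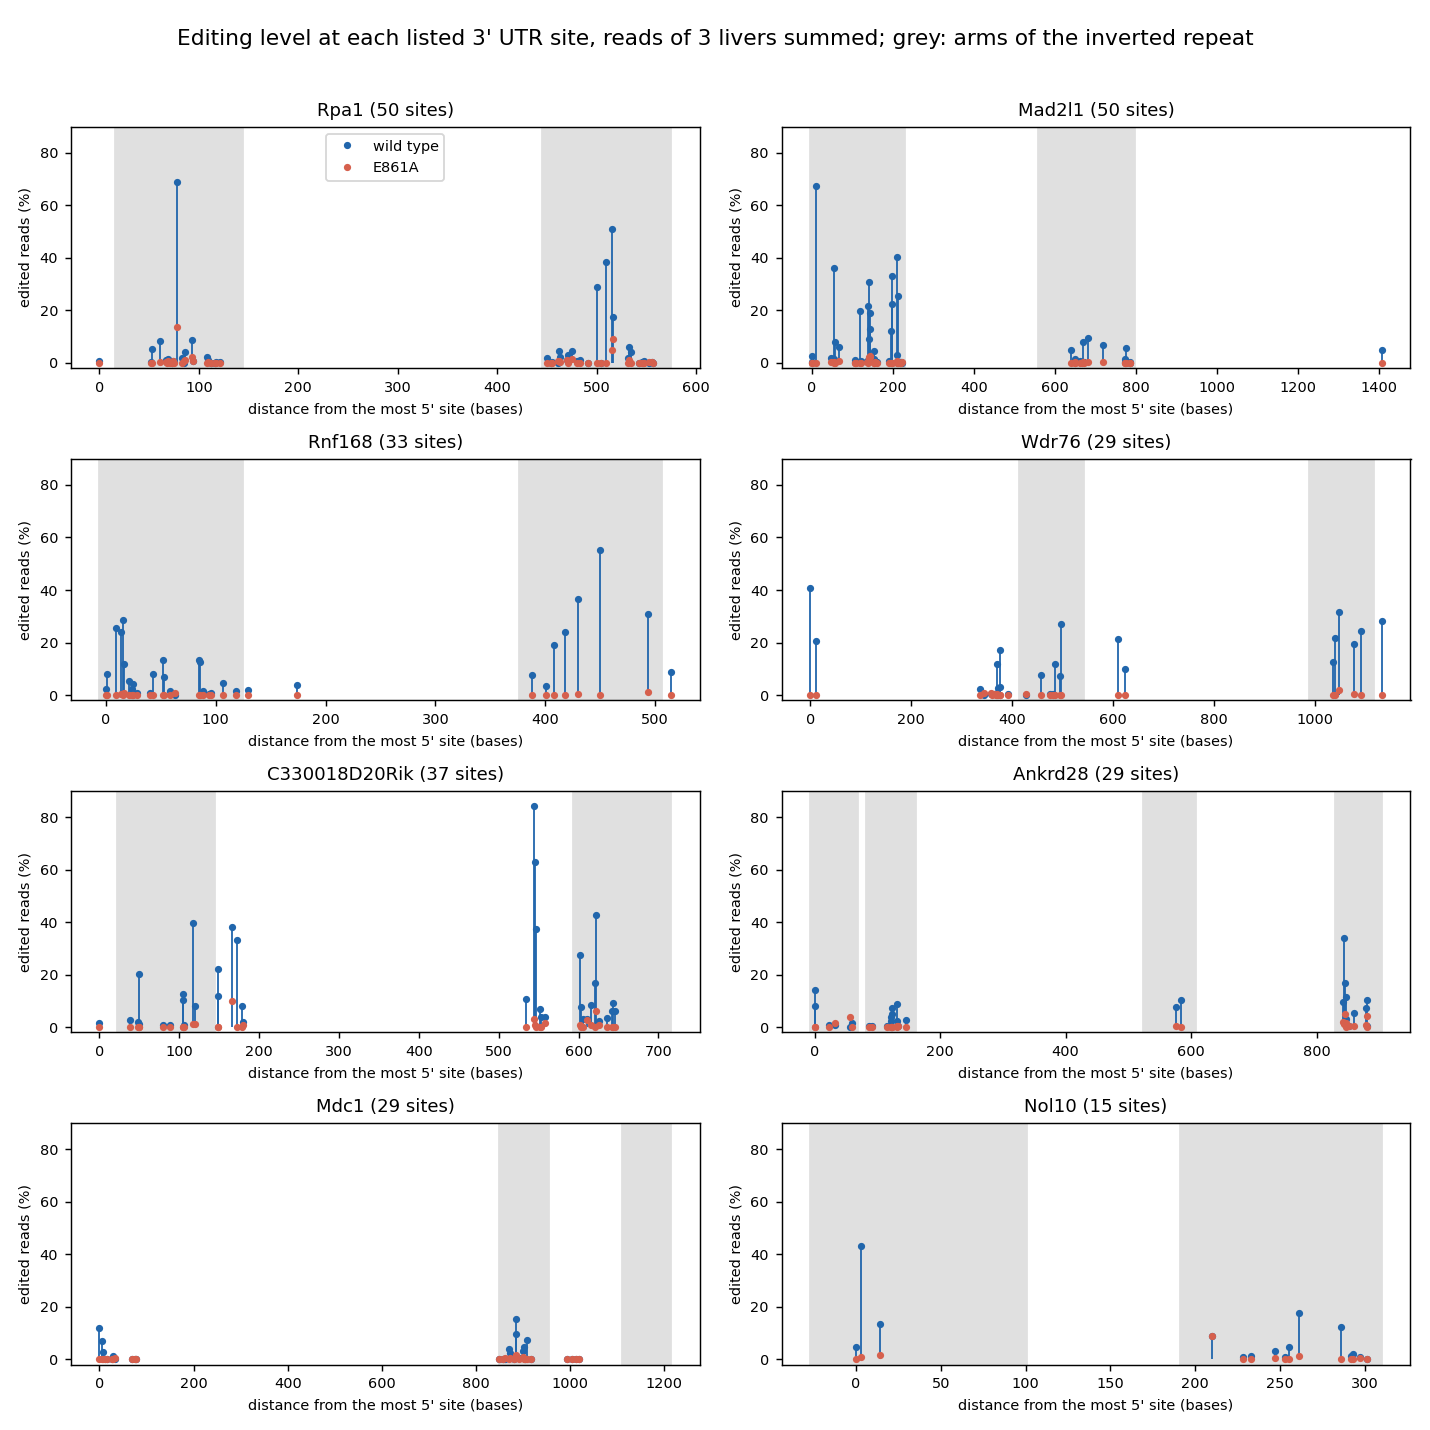
Editing level in percent of reads (vertical axis) at each 3' UTR site against its distance in bases from the most 5' site (horizontal axis), for each of the 8 genes, with the reads of the 3 livers of a genotype summed. Grey bands are the arms of the inverted repeat, blue points wild type and red points E861A, and in Rpa1 4 sites reach 28.8 to 68.8% while most stay near 0.

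Neighbouring sites lay close together. The median distance between neighbours was 5 bases over 264 intervals, from 3 in Rpa1 and Mad2l1 to 8.5 in Wdr76. Adjacent adenosines made up 67 of the 264 intervals (25.4%), and 199 (75.4%) were at most 10 bases. Among 3' UTR sites of other genes with at least 2 of them, the median was 11 bases over 1150 intervals and 110 intervals (9.57%) were adjacent. Whole clusters spanned from 302 bases in Nol10 to 1133 in Wdr76, leaving out the Mad2l1 site beyond the gene model, with which Mad2l1 spans 1409 instead of 787.

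Rpa1 had the most listed sites in the table (51), followed by Mad2l1 (50). C330018D20Rik had 37, Rnf168 34, and Ankrd28, Mdc1 and Wdr76 had 29 each. With 15 sites, Nol10 was 1 of 34 gene names with 15 or more, and Iqgap1 beside it had 15 as well, while Gla and Sass6 had 14. Of the 2047 gene names with any site, 1126 had 1. Ncl, which encodes nucleolin, had 47 sites, yet its summed level in wild type was 0.862%. Summed wild-type levels in the other non-members with the most sites were 4.77% in Bri3bp, 2.96% in Gabpb2, 2.14% in Slc35e1, 3.94% in Dnajc1 and 9.38% in Jmjd4.

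The editing level of a gene is given here as edited reads over covering reads, both summed over its tested 3' UTR sites. A read that spans several sites is counted at each of them, so the reads of neighbouring sites are not independent, and the intervals below cover counting error at single sites only. Over all 272 sites the level was 5.27%, 7.22% and 5.96% in wild type 2, 15 and 17, against 0.556%, 0.402% and 0.717% in E861A 6, 16 and 19. The means were 6.15% ± 0.989 (SD, n = 3) and 0.558% ± 0.157 (SD, n = 3), and the mean E861A level was 9.08% of the mean in wild type. No E861A liver reached any wild-type liver, nor did it in any of the 8 genes taken singly. The same held in Ncl, Bri3bp, Gabpb2, Slc35e1, Dnajc1 and Jmjd4, the non-members with the most sites, so it is not particular to the 8 genes. By a Fisher's exact test on summed reads over all sites, 148 of the 272 were lower in E861A and 1 higher, where 16.7% of all 3883 sites tested were lower. Because edited sites chose these genes, nothing is read from that difference.

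Among the genes of DNA replication and repair, Rpa1 had 4.81%, 6.15% and 4.95% in wild type 2, 15 and 17 against 0.793%, 0.542% and 1.09% in E861A 6, 16 and 19. Rnf168 had a level of 8.84%, 14.6% and 12.2% in the wild-type livers and 0.0784%, 0.256% and 0.0697% in the E861A livers. The summed reads of Rnf168 held 974 edited of 8241 in wild type against 10 of 8652 in E861A. Mdc1 had the lowest wild-type level of the 8, 1.98%, 3.22% and 2.18%, against 0.269%, 0.115% and 0.271% in E861A. The 3 wild-type livers thus exceeded the 3 E861A livers in all these genes, by the least in absolute terms in Mdc1.

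Mad2l1, the checkpoint gene, had a level of 5.96%, 7.12% and 6.81% in wild type against 0.167%, 0.158% and 0.264% in E861A. Wdr76 had 8.15%, 13.7% and 11.1% against 0.361%, 0.0792% and 0.175%. C330018D20Rik had the highest level in wild type, 11.7%, 20.9% and 14.1%, and its E861A levels were 1.07%, 0.137% and 1.07%. Ankrd28 had 3.92%, 8.89% and 6.98% in wild type, against 0.696%, 0.543% and 1.39% in E861A. Nol10 had 4.93%, 8.06% and 5.39% in wild type against 0.511%, 0.94% and 0.706% in E861A. The mean E861A level was 1.13% of the mean wild-type level in Rnf168, 1.87% in Wdr76, 2.96% in Mad2l1 and 4.9% in C330018D20Rik. That share was 8.88% in Mdc1, 11.7% in Nol10, 13.3% in Ankrd28 and 15.2% in Rpa1. At the lowest E861A levels, edited reads and sequencing errors cannot be told apart, because no error rate was estimated.

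**Figure D2:**
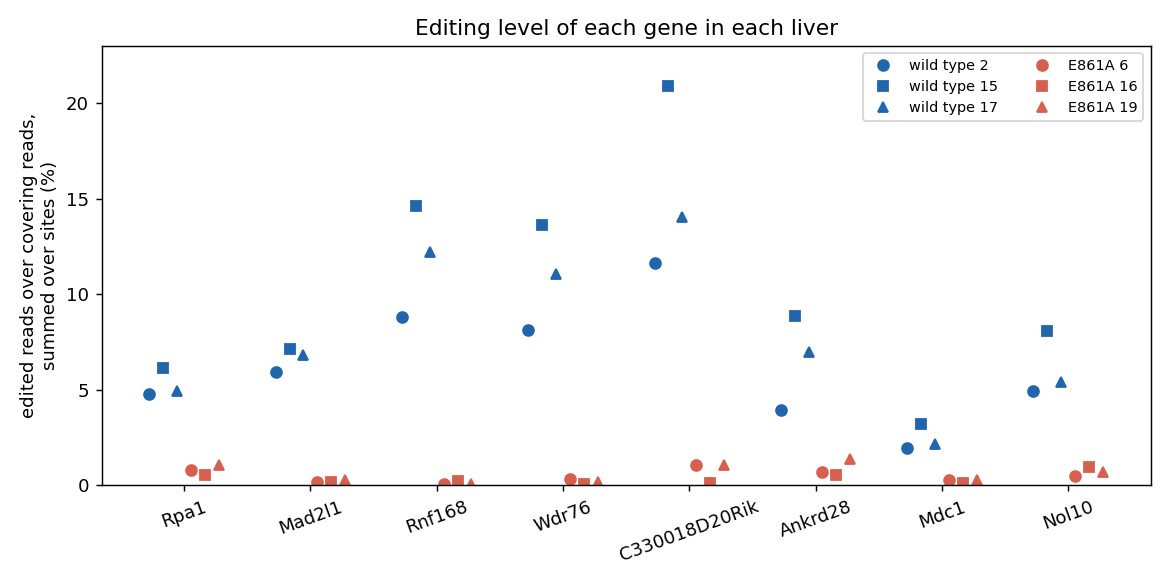
Editing level of each gene in percent (vertical axis), edited over covering reads summed over its sites, for the 3 wild-type (blue) and 3 E861A (red) livers, 1 point per liver. Wild type 15 is the highest and wild type 2 the lowest wild-type liver in all 8 genes, and the E861A livers lie below all of them.

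The wild-type livers had the same highest and lowest liver in each of the 8 genes. Wild type 15 was the highest and wild type 2 the lowest in 8 of 8 genes. Wild type 2 is the male liver of the group, and its level of 5.27% stood against 0.402% to 0.717% in the 3 male E861A livers. Other tested 3' UTR sites, summed, had the same order, with 2.37%, 4.55% and 3.41% in wild type 2, 15 and 17 against 0.316% to 0.366% in E861A. Among single non-members, Bri3bp, Gabpb2 and Slc35e1 had it too, while Ncl was highest in wild type 2, and Dnajc1 and Jmjd4 were lowest in wild type 17. Some steps were small, as in Rpa1, where the intervals of wild type 2 (4.57 to 5.05%) and 17 (4.73 to 5.19%) overlapped.

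Within a gene, a few sites held much of the editing. The 5 sites with the most edited reads held 72.4% of the wild-type edited reads in Rpa1, 78.7% in Nol10 and 70.7% in Mdc1, and from 44.4% to 51.6% in the other genes. In wild type 69 of the 272 sites had a level of 10% or more, 107 lay from 1% to under 10% and 96 under 1%. In all, 261 sites had an edited read in wild type and 122 in E861A. No rate of sequencing error was estimated, so a few edited reads at a site cannot be told from errors. Rpa1 75114104, for example, had 1 of 1890 edited reads in wild type and 2 of 1872 in E861A.

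The highest site of Rpa1, at chromosome 11 position 75114517, was edited in 69.6%, 72.4% and 64.5% of reads in wild type 2, 15 and 17 and in 12.6%, 10.2% and 18.1% in E861A 6, 16 and 19. That is 1503 of 2184 reads (95% Wilson interval 66.8 to 70.7%) against 190 of 1404 (11.8 to 15.4%). It is the adenosine in the middle of the Rpa1 sequence above. The Rpa1 site with the most reads, downstream in the same arm at position 75114474, had 11 of 2369 edited reads in wild type and 1 of 1479 in E861A. Both adenosines follow a U and precede a U, so equal neighbours came with levels of 68.8% and 0.464%.

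In Mad2l1, the site at chromosome 6 position 66490075 had 61.3%, 72.1% and 70.6% in the wild-type livers and no edited read in any E861A liver. The E861A reads were 0 of 348, which allows a level of up to 0.862%. Its most deeply read site, at 66490839, had 23 of 1616 edited reads in wild type and 0 of 1338 in E861A. The 2 lie in opposite arms, 67.5% against 1.42%.

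The highest site of Rnf168, at chromosome 16 position 32300374, had 47.2%, 62.7% and 51.2% in wild type against 0 edited of 243 reads in E861A, which allows up to 1.23%. At its most deeply read site, 32300439, 36 of 417 reads were edited in wild type and 0 of 350 in E861A. In Wdr76 the site at chromosome 2 position 121368998 had 29.7%, 50% and 42.2% in wild type against 0 of 286 reads in E861A, which allows up to 1.049%. The Wdr76 site shown above, 121369494, had 127 of 472 edited reads in wild type and 0 of 389 in E861A. None of these sites had an edited read in any of the 3 E861A livers.

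C330018D20Rik held the most strongly edited site, at chromosome 18 position 57116216, with 81.2%, 92.1% and 78.1% in wild type against 4.69%, 0% and 2.5% in E861A. The reads there were 86 of 102 (76.0 to 90.1%) and 4 of 129 (1.21 to 7.70%), fewer than at the sites above. Its most deeply read site had 10 of 163 edited reads in wild type and 0 of 112 in E861A.

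The highest site of Ankrd28, at chromosome 14 position 32513849, had 20.3%, 42.9% and 46.7% in wild type against 0.775%, 0% and 2.54% in E861A. Ankrd28 had 1 of 324 and 0 of 370 edited reads at its most deeply read site. In Mdc1 the highest site, at chromosome 17 position 35995565, had 11.2%, 20.6% and 13.7% in wild type against 2.29%, 0% and 2.2% in E861A. The most deeply read Mdc1 site, 35994685, had 55 of 804 and 1 of 620. In Nol10 the highest site, at chromosome 12 position 17436407, had 37.3%, 48.6% and 42.4% in wild type against 0%, 2.47% and 1.15% in E861A, and the most deeply read had 6 of 443 and 0 of 566. At the highest site of each of the 8 genes the genotypes did not overlap. Because these sites were chosen by their wild-type level, nothing is read from that.

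Of the 69 sites with at least 10% in wild type, 37 had no edited read in E861A, 49 were under 1%, and 6 were at 5% or more. In 68 of the 69, each E861A liver was below each wild-type liver, and the same held for 156 of all 272 sites. Over the whole table it held for 20.8% of the 3746 tested sites with reads in all 6 livers, a share printed without a reading because wild-type editing chose the genes.

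Rpa1 held 70.2% of the edited E861A reads of all 8 genes, and 49.1% of their covering E861A reads. Its summed E861A level of 0.807% was below those of Ankrd28 (0.9%) and C330018D20Rik (0.885%). Of its 642 edited reads, 421 (65.6%) came from 3 sites, named here after their values were seen. The first is 75114517. The others are 75114080, with 835 of 1634 edited reads in wild type and 86 of 1697 in E861A, and 75114079, with 281 of 1604 and 145 of 1620. At 75114079 the E861A livers had 9.66%, 4.47% and 12.7% against 21.2%, 17.9% and 13.8% in wild type, so this site kept 51.1% of its wild-type level, and the highest E861A liver came close to the lowest wild-type liver. In the duplex found by alignment, 75114517 faces the C at 75114081, and 75114080 and 75114079 are the adenosines directly 3' of that C in the facing stretch printed above. All 3 sites thus sat at the same place of the Rpa1 duplex, in both of its arms.

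Other Rpa1 sites nearby with a high wild-type level had hardly any edited reads in E861A. Position 75114086 had 711 of 1844 edited reads in wild type and 2 of 1871 in E861A, and 75114095 had 518 of 1796 and 3 of 1813. Both were named after their values were seen.

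Outside Rpa1, the residual sites had fewer reads. In C330018D20Rik the site at 57116594 had 51 of 134 edited reads in wild type and 10 of 100 in E861A, and the one at 57116138 had 58 of 136 and 6 of 99. Ankrd28 had 45 of 270 and 17 of 336 at 32513848, next to its highest site, and 33 of 322 and 16 of 370 at 32513812. Ankrd28 also held the 1 site called higher in E861A, at 32514637, with 0 of 207 edited reads in wild type and 7 of 177 in E861A. That call is by Fisher's exact test on reads summed over livers, so it does not measure the spread between livers. Of the 3611 other tested sites, 5 were called higher. Position 32514637 is directly 3' of the base that faces the highest Ankrd28 site. In Nol10 the site at 17436614 had 25 of 275 (6.23 to 13.1%) and 25 of 282 (6.08 to 12.8%), levels that overlapped between the genotypes. These sites too were named after their values were seen.

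**Figure D3:**
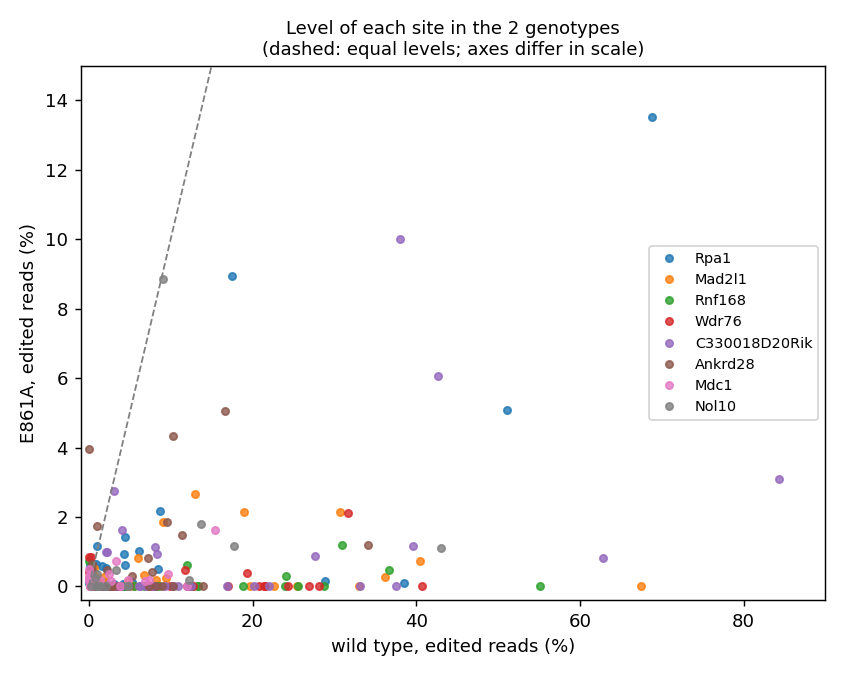
Each point is 1 of the 272 sites, with its level in the 3 wild-type livers summed (horizontal axis, percent of reads) and in the 3 E861A livers summed (vertical axis, percent of reads, on a different scale), coloured by gene. Most sites lie on the horizontal axis, including the highest sites of Mad2l1, Rnf168 and Wdr76, while Rpa1 75114517 stands at 68.8% and 13.5%.

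The ranking of sites recurred between livers. Across the 272 sites, the Spearman rho of the levels in 2 wild-type livers was 0.81, 0.792 and 0.822 for the 3 pairs. The points share libraries and duplexes, so these values are a description.

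The base before the adenosine differed with the level. Among 69 sites at 10% or more in wild type, a U (T in the genome) came before 39.1%, an A before 42.0%, a C before 14.5% and a G before 4.35%. Among 96 sites under 1%, the shares were 17.7%, 33.3%, 27.1% and 21.9%. Adenosines in the same arms that were not listed (437) had 17.8% U, 28.4% A, 27.2% C and 26.5% G, and all 10427 unlisted adenosines of the windows searched had 22.0%, 30.9%, 25.1% and 22.0%. The weakly edited sites were therefore near the unlisted adenosines, and the strongly edited ones were poor in G. One of the 3 strong sites after a G was Rpa1 75114086, at 38.6%. By median wild-type level, sites after a U had 6.89%, after an A 3.53%, after a C 1.74% and after a G 0.403%. These classes and medians mix genes of different levels and base content. Mdc1, with the lowest level, had a G before 10 of 29 sites and a U before 3. In C330018D20Rik, with the highest level, the numbers were 2 and 14 of 37.

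**Figure D4:**
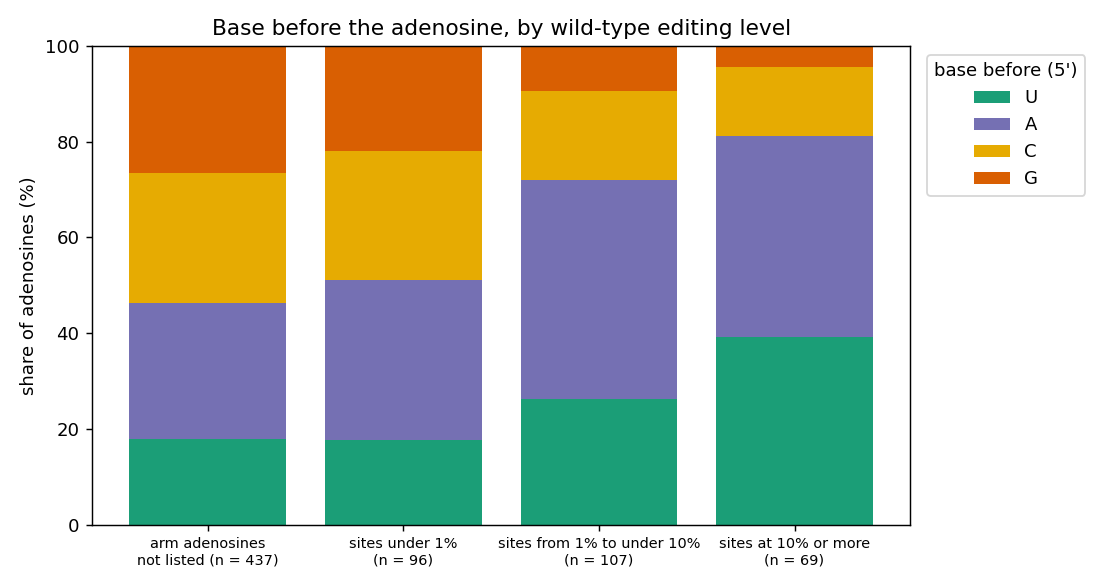
Share in percent (vertical axis) of the 4 bases directly 5' of the adenosine, for 437 adenosines of the repeat arms that were not listed and for the 272 sites in 3 classes of wild-type level. The share of G falls from 26.5% to 4.35% from left to right and that of U rises from 17.8% to 39.1%.

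The facing base was a U at 186 of the 221 arm sites (84.2%), a C at 23 (10.4%), an A at 6 and a G at 6. Of the 437 arm adenosines not listed, 381 faced a U (87.2%) and 27 a C (6.18%). Sites facing a C had a summed level of 11.01% in wild type against 1.75% in E861A, and those facing a U 5.27% and 0.472%. The 6 sites facing an A had the highest summed wild-type level, 17.2%, with 0.0842% in E861A, and the 6 facing a G the lowest, 0.688%, with 0.113%. Among the 6 facing an A, Rpa1 75114086 alone had 711 of 1844 edited reads in wild type, and no level was computed without it. The median wild-type level of single sites was 7.36% facing an A, 4.37% facing a C, 3.05% facing a U and 0.92% facing a G. Without Rpa1 75114517 the sites facing a C had 4.49% and 0.715%.

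Expression was compared on read counts, scaled here to CPM (reads of a gene per 1e6 reads counted in the library), with edgeR's quasi-likelihood test over 16511 genes. Of the 8 genes, 5 fell in E861A (adjusted p under 0.05) and none rose, where 4.26% of all genes tested were lower and 7.77% higher. At an unadjusted p under 0.05, 7 were lower and 0 higher, where 12.2% of all genes tested were lower and 15.5% higher. The median log2 fold change was -0.63, against 0.04 over all tested genes. In 7 of 8 genes all E861A livers lay below all wild-type livers, which held for 14.5% of all genes tested. This test does not use the editing levels that chose the genes. The genes were chosen with earlier results of these data known, however, so the choice may not be independent of their expression. The libraries are a mixture of cells, so fewer cells of a type and less RNA per cell cannot be told apart.

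Rpa1 had 203.6, 304.7 and 282.6 CPM in wild type 2, 15 and 17 against 143.3, 134.9 and 124.1 CPM in E861A 6, 16 and 19. It fell by 0.98 on the log2 scale (SE 0.18, adjusted p = 0.0143 by edgeR), from 263.6 ± 53.1 to 134.1 ± 9.62 CPM (SD, n = 3). Rnf168 had 68.8, 74.9 and 75.2 CPM in wild type against 53.2, 42.5 and 46.4 CPM in E861A. It fell by 0.62 (SE 0.14, adjusted p = 0.0241 by edgeR), and the 3 livers of a genotype were close to each other.

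Mdc1 had 199.1, 240.3 and 225.7 CPM in wild type against 116.9, 147.3 and 150.0 CPM in E861A, and fell by 0.68 on the log2 scale (SE 0.16, adjusted p = 0.0312 by edgeR). Mad2l1 had 116.0, 136.6 and 134.1 CPM against 91.4, 77.5 and 80.3 CPM. Mad2l1 fell by 0.63 on the log2 scale (SE 0.14, adjusted p = 0.0245 by edgeR). The groups of both genes were apart by more than the spread within either. Wdr76 had 65.3, 80.9 and 78.6 CPM in wild type against 52.7, 45.3 and 42.1 CPM in E861A, and fell by 0.68 (SE 0.15, adjusted p = 0.0251 by edgeR).

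The other 3 genes did not pass. C330018D20Rik had 23.4, 28.4 and 23.3 CPM in wild type against 22.9, 14.1 and 14.7 CPM in E861A, a log2 fold change of -0.54 (SE 0.22, adjusted p = 0.154 by edgeR), with E861A 6 next to the wild-type livers. Nol10 had 46.95, 64.3 and 55.9 CPM against 46.8, 41.4 and 37.7 CPM, a log2 fold change of -0.41 (SE 0.16, adjusted p = 0.145 by edgeR). Ankrd28 had 53.2, 64.1 and 58.0 CPM against 47.4, 50.4 and 55.1 CPM, groups that overlapped, and a log2 fold change of -0.20 (SE 0.13, adjusted p = 0.403 by edgeR). The authors' deposited table had the same 5 genes under 0.05, with adjusted p from 0.0132 in Rpa1 to 0.029 in Mdc1.

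The 5 calls depended on which livers entered the fit. With sex as a covariate none of the 8 passed and 5 had an unadjusted p under 0.05, and in the 4 male livers alone, with 1 wild-type liver, none passed and 2 had an unadjusted p under 0.05. The log2 fold change of Rpa1 was then -0.60 and -0.59, that of Rnf168 -0.54 and -0.53. Without wild type 17 or without E861A 16 none of the 8 passed, and without wild type 15 Rpa1 alone did. The sign stayed negative for all 8 genes in each of these fits.

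**Figure D5:**
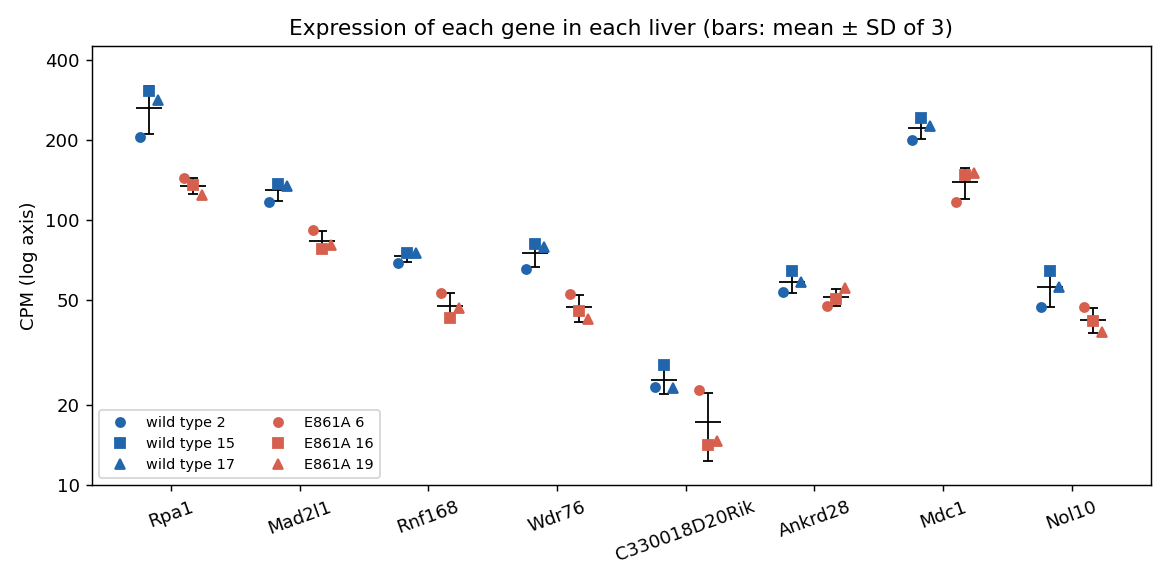
Expression of each gene in CPM (log axis) in the 3 wild-type (blue) and 3 E861A (red) livers, with the mean and SD of each genotype as bars. The groups overlap in Ankrd28 and touch in Nol10 (46.95 against 46.8 CPM) and C330018D20Rik (23.3 against 22.9 CPM), and are apart in Rpa1, Mad2l1, Rnf168, Wdr76 and Mdc1.

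Genes that work with these proteins were read from lists of named partners. Their counts stand beside the 4.26% of all genes tested that were lower and the 7.77% that were higher. Of 12 genes of replication protein A and the replication stress response, 2 fell and none rose, with a median log2 fold change of -0.26. They were Clspn, encoding the checkpoint adaptor claspin (log2 fold change -0.99, adjusted p = 0.00573 by edgeR), and Hus1, of the checkpoint clamp (-0.76, adjusted p = 0.0179 by edgeR). The other subunits of replication protein A, Rpa2 and Rpa3, had -0.50 and -0.25 with adjusted p of 0.118 and 0.364 by edgeR. In this fit Rpa1 was the 1 subunit of the trimer that passed, while Rpa2 had an unadjusted p of 0.025 by edgeR. With sex as a covariate Rpa1 did not pass either, and the difference between the subunits was not tested.

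Of 10 spindle checkpoint genes 2 fell and none rose, with a median of -0.42. Casc5, encoding the kinetochore scaffold KNL1, had -1.004 (adjusted p = 0.00513 by edgeR) and Bub1b, encoding BUBR1, had -0.72 (adjusted p = 0.0343 by edgeR). Mad1l1, whose product recruits MAD2 to kinetochores, had -0.34 with an adjusted p of 0.199. Of 14 genes of double-strand break signalling 1 fell, Herc2 (-0.99, adjusted p = 0.0388 by edgeR), and none rose, with a median of -0.34. A single gene of 14 is near the share over all genes. Herc2 encodes a ligase that works with RNF8, and Rnf8 itself had -0.21. The product of Trp53bp1 binds the chromatin marked by RNF168, and that gene had -0.51 with an adjusted p of 0.205. Of 4 genes of the CUL4-DDB1 ligase and Hells, Cul4a (-0.67) and Ddb1 (-0.63) fell, with adjusted p of 0.0325 and 0.0437 by edgeR, and the median was -0.54.

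No gene passed in either direction among 15 of the small subunit processome, the partners of Nol10, or among 6 of protein phosphatase 6, the partners of Ankrd28. Their medians were 0.04 and -0.26. At an unadjusted p under 0.05 in the edgeR fit, 0 and 2 of them were lower and none was higher. With DESeq2, 0 and 2 passed as lower, and with limma-voom none did. In the fit with a term for sex, and likewise in the male livers alone, no gene of any of the partner lists passed as lower.

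A list of 14 genes held proteins that bind or edit double-stranded RNA together with parts of the paraspeckle, a nuclear body, and its modifier Carm1. Of these, 2 rose and 3 fell. Adar had 56.7, 79.0 and 57.3 CPM in wild type against 274.9, 344.5 and 333.8 CPM in E861A, a log2 fold change of 2.30 (SE 0.19, adjusted p = 0.00026 by edgeR). Neat1, the paraspeckle RNA, rose by 1.76 on the log2 scale (adjusted p = 0.00231 by edgeR). Sfpq, a paraspeckle protein (-0.59), Dhx9, a helicase that unwinds such duplexes (-0.67), and Carm1, which methylates paraspeckle proteins (-0.70), fell, with adjusted p of 0.0398, 0.0498 and 0.0308 by edgeR. Adarb1, the other active editing enzyme, had 12.5, 9.02 and 8.95 CPM in wild type against 7.04, 9.85 and 10.4 CPM in E861A, groups that overlapped. The transcript of the mutated enzyme was thus higher in the livers in which the sites were little edited.

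Markers of proliferating cells were lower in E861A, as were the 5 genes that passed. The counts of markers below stand beside the 4.26% of all genes tested that were lower and the 7.77% that were higher. Of 6 such markers, 5 fell, with a median log2 fold change of -0.97, and their summed level was 5014, 7864 and 6338 CPM in wild type against 3172, 3130 and 3126 CPM in E861A. Of 6 erythroid markers 3 fell, and their sum lay between 6013 and 12550 CPM in the wild-type livers and between 3119 and 3481 CPM in the others. For both lists the lowest wild-type sum was that of wild type 2, the male wild-type liver. Results of the fit with a term for sex are not given for the markers. Of 6 genes that respond to tissue dissociation 4 rose, from a sum of 68.9 to 230.8 CPM to one of 457.3 to 1136 CPM. Hepatoblast markers rose in 3 of 7, granulocytic ones in 2 of 4, and macrophage (6) and endothelial (5) markers each had 1 gene higher and 1 lower. None of 3 megakaryocyte or 4 mesenchymal markers passed by edgeR, DESeq2 or limma-voom, and none of them had an unadjusted p under 0.05 by edgeR. All the listed markers passed the filter on low counts. The part of these shifts in the lower expression of the 5 genes was not tested.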

How the data were processed

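RNA of 6 whole fetal livers was sequenced, 3 per genotype. Per the submitters' processing notes, the builds were mm9 and NCBIM37, and the tools included HTSeq, TopHat2 (2.0.8), SAMtools (0.1.19), edgeR and BWA, with no step tied to a file. The gene table holds raw read counts per Ensembl gene as deposited by the authors. The site table, per the file headers, holds covering read counts and the edited fraction of these reads, by site and library. Another table, as deposited by the authors, gives log2 fold changes and p-values per gene, whose sign was turned here to E861A minus wild type. Site calling is not given in the sources used here, and neither is the strandedness of the libraries, so sense and antisense reads cannot be told apart. There were 0 columns of other samples.

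The number of edited reads was taken as level times coverage, within 2.32e-06 of a whole number. Sites needed at least 10 reads in each genotype. Levels have Wilson 95% intervals, and a level of 0 is given with that of 3 edited reads. The two-sided Fisher's exact test with Benjamini-Hochberg adjustment over 3883 sites gave counts of sites called and named the 1 site called higher. Reads are not independent molecules, so intervals and limits cover counting error. Expression was tested with edgeR 4.0.16 (R 4.3.3), using filterByExpr, TMM factors and the robust quasi-likelihood F test, with Benjamini-Hochberg adjustment over 16511 genes and a threshold of 0.05. CPM are TMM-scaled, and SE is that of the log2 fold change. Nothing but the numbers of livers in the labels shows that replicates are separate embryos, so p-values measure the spread between these samples. DESeq2 1.42.0 and limma-voom (limma 3.58.1) were alternatives. The edgeR test and Fisher's exact test were tried on simulated data, whose outcome is not given here.

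Inverted repeats were searched with blastn (BLAST 2.17.0, word size 11, e-value up to 0.001) between the window from the first to the last 3' UTR site, with 2000 bases on each side, and its own opposite strand, keeping hits of at least 50 bases. Where several hits covered a site, the one with the most identical positions was used. This rule was set after a first run by length had given Rnf168 a partner arm beyond its annotated transcript. By length, 221 sites again lay in arms, 183 instead of 186 faced a U, and 185 of 221 faced the same position. Intronic sites were left out of that search. The classes of level, the facing bases, the shares of the top sites, the search in other genes and the comparison with unlisted adenosines of the arms were also added after seeing the data. Python 3.11.15, pandas 2.3.3, NumPy 2.4.6 and SciPy 1.17.1 were used.

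The 8 genes, the partner lists and the marker lists were chosen with earlier results of these data known. Named sites are, for each gene, the one with the highest wild-type level among those with at least 30 wild-type reads and the one with the most wild-type reads. Named genes outside the 8 are up to 6 with the most sites, and partner genes past the threshold, up to 3 per list and direction by smallest p. A few sites and partner genes named besides were chosen after their values were seen. Positions are 1-based in NCBIM37, and sequence was read from that build.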

Additional observations from a re-analysis of the deposited data

How the results depend on the processing

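No paired analysis was possible because no number in the labels occurs in both genotypes. Of the 8 genes, 5 were lower in E861A with DESeq2 size factors, with library size alone, without a filter, with DESeq2 and with limma-voom. None was with sex as a covariate or in male livers alone, and leaving out 1 liver gave 0 to 5. For the partner lists, 10 genes were lower in the edgeR fit, 18 with DESeq2, 0 with sex as a covariate, 0 in male livers and 2 to 20 without 1 liver, while 2 to 3 were higher. Over all genes, 703 were lower in the edgeR fit, 1388 with DESeq2, 39 with sex as a covariate, 8 in male livers and 95 to 1502 without 1 liver. Higher genes were 1283, 530 with sex as a covariate, 301 in male livers and 515 to 1737 without 1 liver. The causes were not tested, although the male fit has 4 livers and each fit without 1 liver has 5. Of 104 alternative fold changes of the 8 genes, 78 kept their side of the threshold, 25 lost it, 1 gained it and 0 changed sign.

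The editing level over the 272 sites was 6.16% in wild type and 0.565% in E861A on summed reads, and 8.58% in wild type as a mean of single sites. Leaving out 1 liver gave 5.62 to 6.6% and 0.493 to 0.627%. For single genes, 109 of 112 alternative levels moved by less than 1 SD, and 3 moved further, all as means of single sites. These were Mad2l1 (8.64% in wild type, 0.267% in E861A) and Nol10 (0.946% in E861A). Sites in an inverted repeat numbered 221, 222 with 4000 bases on each side and 192 with arms of at least 100 bases. Depth limits a level of 0 at single sites to the bounds given.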
